A study of Mus musculus with 8 samples.

Results

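The disease-associated microglia genes described here are 9 genes: Trem2, Apoe, Clec7a, Lpl, Cst7, Axl, Spp1, Cd9 and Cd52. They were chosen by name from 21887 protein-coding mouse genes. Their chromatin was read from ATAC-seq peak lists, in which a transposase has cut accessible DNA and a caller has marked local excesses of reads as peaks. A locus is the gene span in the mm10 annotation plus 20 kb on each side. The 9 loci held 163 of the 180156 peaks of the series (0.0905%) and 36 of its 52251 union regions (0.0689%), where a union region merges peaks of all libraries that share at least 1 bp. Microglia, the resident macrophages of the brain, came from the hippocampus of mice aged 3 weeks, with 4 libraries from controls (Ctrl) and 4 from offspring with growth restriction before birth (FGR). All 8 carry the genotype Tmem119-tdTomato+/-, a fluorescent reporter at a microglial gene, and no untagged or other-genotype group stands beside them. The labels do not give the method of growth restriction, the sex, the number of animals per library or how the microglia were isolated, so p-values measure the spread between these libraries, which may be technical. The design sets FGR against Ctrl, which for these genes asks whether their chromatin differs at 3 weeks.

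Disease-associated microglia are a state first described around amyloid plaques, in which microglia lower their resting genes and raise genes for lipid uptake, lysosomal digestion and adhesion. Entry into the full state depends on the lipid receptor TREM2, and a related programme appears in microglia of developing white matter in young animals. An open promoter is common at genes that are not transcribed, and enhancers can lie far from a gene, so peaks describe accessibility and not transcription.

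The peak lists held 10862 to 24195 peaks in Ctrl and 23327 to 29501 in FGR, and the background coverage recovered from each list, a measure of depth, was 3.01 to 6.05 extended reads per base in Ctrl and 3.52 to 4.82 in FGR. The shortest list and the lowest coverage were both those of Ctrl replicate 2. Values given 4 to a group are in the order of replicates 1 to 4. Ctrl replicates 1 and 2 had wider peaks (medians of 566 and 522 bp) than the other 6 (353 to 386 bp), with summits displaced by a median of 138 to 141 bp against the other 6. Of overlapping peak pairs, 8.96% had the identical summit base in FGR replicates 1 and 3 and 7.46% in FGR replicates 2 and 4, against at most 2.10% for any other pair, so each of these FGR pairs was counted as 1 sample in any mean with an SD. In ATAC-seq of a cell population, fewer open cells and less open chromatin per cell cannot be told apart. Among 17 homeostatic microglia genes, 35.3% to 70.6% in Ctrl and 64.7% to 76.5% in FGR libraries had a peak within 1 kb of an annotated gene end. Of all protein-coding genes, 34.8% to 48.3% and 44.7% to 48.4% had one. Markers of other cells mostly lacked one: 0 of 8 monocyte and neutrophil genes had such a peak in any library, while at most 12.5% of astrocyte, oligodendrocyte lineage or natural killer and T cell genes and at most 25% of neuron, border macrophage or endothelial and mural genes had one in a library.

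Start sequences are shown first because the members split by whether their own start was accessible. Cd9 stands for a start called in 7 libraries, Trem2 and Cst7 for starts called in 4, and Spp1 and Clec7a for starts called in none. Each line gives the 250 bases before the RefSeq transcription start, read 5′ to 3′ on the gene's strand from RefSeq (GRCm38.p6, whose chromosomes are those of mm10). Capitals mark matches, on either strand, to any of 9 motifs: GAGGAAGT and its core GAGGAA (PU.1 and other ETS factors), TGANTCA (AP-1), CACGTG (the E-box of MITF and TFEB), TTGCNNAA (C/EBP), the IRF site with its paired GAAA repeat, GGGCGG (GC box), CCAAT and TATAAA. The first motif contains the second. The windows lie at chr6:125494761-125495010 (minus strand), chr17:48346151-48346400 (plus), chr2:150570165-150570414 (plus), chr5:104434861-104435110 (plus) and chr6:129472780-129473029 (minus).
Cd9: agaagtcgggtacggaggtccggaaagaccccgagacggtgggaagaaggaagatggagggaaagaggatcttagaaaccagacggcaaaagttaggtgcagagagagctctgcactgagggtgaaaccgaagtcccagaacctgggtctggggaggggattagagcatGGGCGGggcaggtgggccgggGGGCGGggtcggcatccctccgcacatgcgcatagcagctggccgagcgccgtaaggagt
Trem2: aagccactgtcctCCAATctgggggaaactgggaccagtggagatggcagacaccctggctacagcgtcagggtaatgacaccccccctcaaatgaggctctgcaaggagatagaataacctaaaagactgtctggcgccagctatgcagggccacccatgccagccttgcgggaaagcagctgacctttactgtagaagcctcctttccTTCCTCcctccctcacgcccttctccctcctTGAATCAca
Cst7: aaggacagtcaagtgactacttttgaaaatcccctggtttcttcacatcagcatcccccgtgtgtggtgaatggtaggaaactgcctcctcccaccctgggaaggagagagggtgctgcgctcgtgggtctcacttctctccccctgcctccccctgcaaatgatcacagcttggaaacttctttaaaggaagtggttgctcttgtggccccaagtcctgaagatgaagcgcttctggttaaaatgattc
Spp1: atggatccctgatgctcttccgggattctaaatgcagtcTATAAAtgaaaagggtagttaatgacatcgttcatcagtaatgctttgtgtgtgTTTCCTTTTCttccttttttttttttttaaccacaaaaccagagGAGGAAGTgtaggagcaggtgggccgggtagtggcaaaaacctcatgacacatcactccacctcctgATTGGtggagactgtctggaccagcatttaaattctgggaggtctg
Clec7a: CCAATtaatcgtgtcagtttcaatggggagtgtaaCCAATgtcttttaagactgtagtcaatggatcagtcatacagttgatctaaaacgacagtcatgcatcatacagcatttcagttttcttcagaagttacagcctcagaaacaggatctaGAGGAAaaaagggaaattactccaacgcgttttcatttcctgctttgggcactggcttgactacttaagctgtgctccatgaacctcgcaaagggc

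The Cd9 window was the richest of these in CpG, with 16 CpG dinucleotides and 61.6% G and C, and its capitals are 2 GC boxes. Trem2 had 4, Cst7 4, Spp1 3 and Clec7a 5 CpG dinucleotides. The windows of Axl and Apoe, taken at the first start listed, held 5 and 8. Over all 17492 genes with a start sequence, the median was 19 CpG dinucleotides where a start peak was called in 8 libraries (5466 genes) and 3 where it was called in none (7994 genes). Of the 7 members with a start sequence, 5 held GAGGAA (Trem2, Apoe, Clec7a, Axl and Spp1), as did 22.1% of all windows. The longer GAGGAAGT occurred in Spp1 alone among the 7 and in 2.18% of all windows. TGANTCA occurred in Trem2, where it lies at positions -9 to -3 from the start, and in 6.22% of all windows. GC boxes occurred in Axl and Cd9, and in 42.7% of all windows, while Spp1 also held TATAAA and the IRF site, found in 12.4% and 3.02%. CACGTG and TTGCNNAA matched none of the 7 first windows, against 6.64% and 9.11% of all, and the Cst7 window matched no motif searched. All these motif counts take the first window listed for a gene. In a later window, Apoe held TATAAA and Spp1 held TTGCNNAA. These are matches of letters, not sites. Lpl and Cd52 have no start sequence in the table used.

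At the level of gene starts, none of the 7 members had a start peak in all 8 libraries, against 31.2% of the 17492 genes, and 2 had none in any library, against 45.7%. A start peak overlaps the 300 bp from 250 before to 50 after a RefSeq start. The number of members with one was 2, 0, 3 and 2 in Ctrl and 2, 4, 2 and 3 in FGR, so the groups overlapped. Over all genes with a start sequence, 34.7% to 46.8% had one in Ctrl and 43.5% to 46.5% in FGR libraries. No member's start was called in 4 FGR and 0 Ctrl libraries (0.166% of genes), in 4 Ctrl and 0 FGR libraries (0.0343%) or in at least 3 more FGR than Ctrl libraries (1.06%). A peak within 1 kb of either annotated gene end gave a different picture for some members. That measure also takes in the 3′ end and neighbouring genes, as described for Axl and Apoe, and for Trem2 a region inside the gene. Cd52 has no start sequence to compare. By the gene-end measure, 0 of 9 members had a peak in all 8 libraries, against 31.9% of 21887 genes. With it 2 of 9, Clec7a and Spp1, had none in any, against 42.2%. None had one in 4 FGR and 0 Ctrl libraries (0.169% of genes), in 4 Ctrl and 0 FGR (0.0228%) or in at least 3 more FGR than Ctrl libraries (1.21%). Ctrl replicate 2 alone had a gene-end peak at 0 of 9 members. Trem2, Axl and Cd9 had one in each of the other 7.

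**Figure D1:**
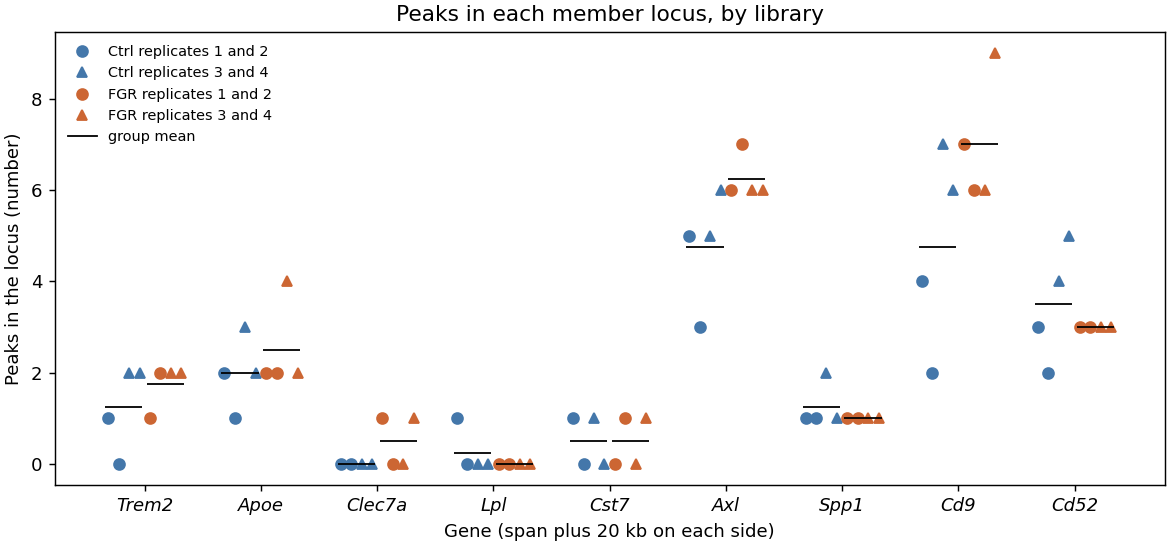
Number of peaks (vertical axis) in the locus of each of the 9 genes (horizontal axis), with a point for each library, circles for replicates 1 and 2, triangles for replicates 3 and 4, and a line at the group mean. Axl, Cd9 and Cd52 hold the most peaks, Lpl and Clec7a hold 0 or 1 in every library, and the groups overlap or touch at all 9 loci.

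The loci differed widely in how many peaks they held for their length. The mean over libraries was 7.89 peaks per 100 kb of locus for Cd9, 7.83 for Cd52, 7.59 for Axl, 4.99 for Apoe, 3.27 for Trem2, 2.45 for Spp1, 1.03 for Cst7, 0.488 for Clec7a and 0.188 for Lpl. The median of all protein-coding loci was 1.76 peaks per 100 kb. Cd9, Cd52 and Axl thus ranked above 94.7% of loci, and Lpl at the percentile 24.5, where 21.4% of all loci had no peak in any library. The ranges over libraries of neighbours in this order overlapped, for example 4.14 to 9.67 per 100 kb for Axl and 2.22 to 8.88 for Apoe, except for Spp1 (2.18 to 4.35) and Cst7 (0 to 2.06). In all, 9 of the 36 regions were called in all 8 libraries, against 16.9% of the 52251 regions, and 8 were called in a single library, against 45.9%. A further 5 were called in every library but Ctrl replicate 2, against 5.2%. Of the 36 regions, 14 overlapped a member gene, and the others lay in the flanks, where neighbouring genes can also lie.

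**Figure D2:**
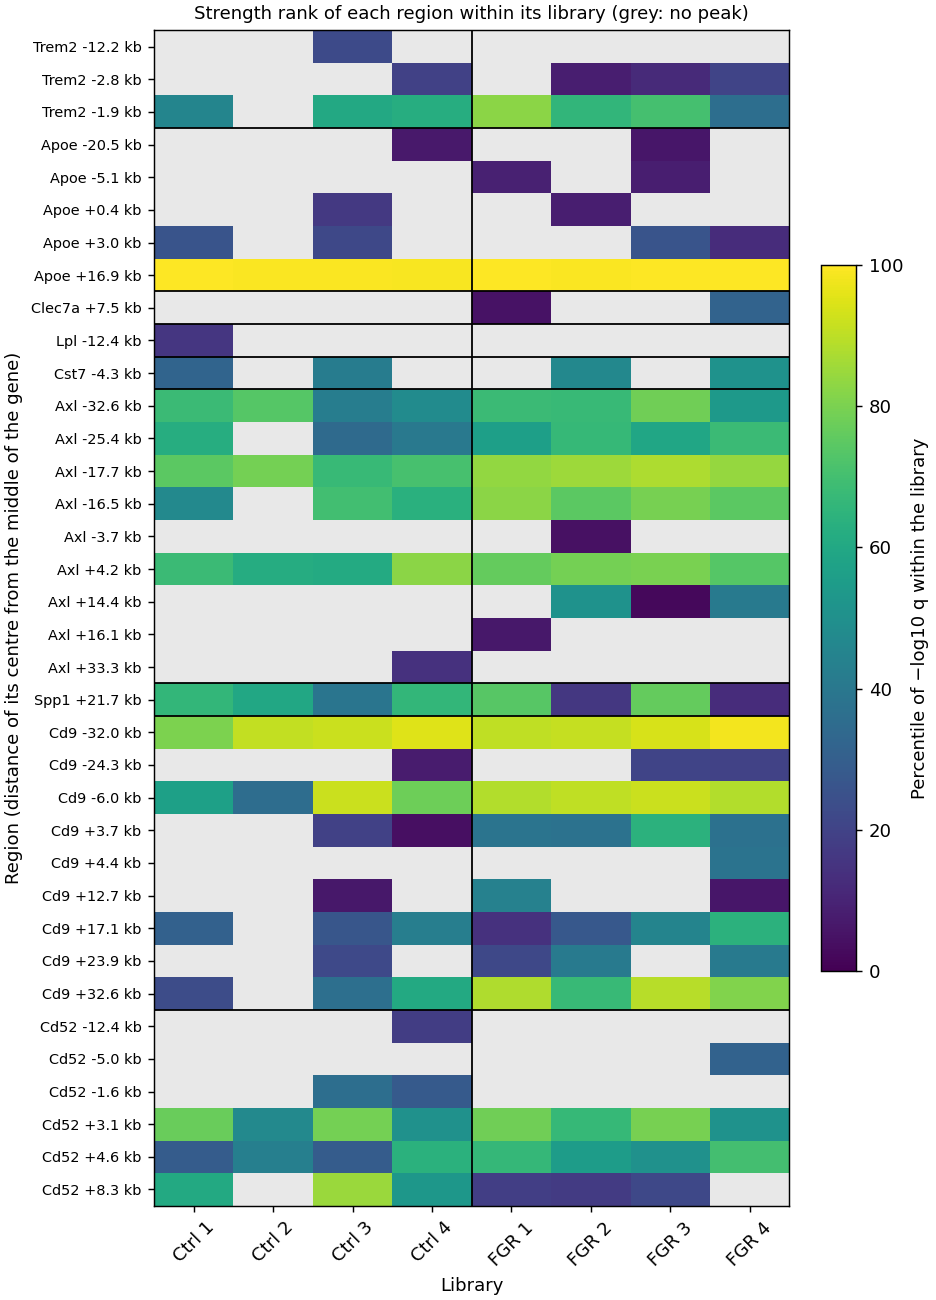
Each row is 1 of the 36 union regions, labelled with the distance in kb of its centre from the middle of its gene, along the reference sequence. Each column is a library, and colour gives the percentile of the region's strongest peak by −log10 q within that library, with grey for no peak. The Tomm40 start in the Apoe locus ranks above the percentile 99 in every list, while the Apoe start (+0.4 kb) has a weak peak in 2 libraries.

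Trem2 encodes the lipid-sensing receptor of the programme and lies on chromosome 17 (48346401 to 48352276, plus strand). Its most frequent region was inside the gene, 1075 bp after the start (48347173 to 48347719). It was called in Ctrl replicates 1, 3 and 4 at the percentiles 45.5, 60.2 and 62.4 of their lists by −log10 q. All FGR libraries had it, at 82.8, 65.7, 70.6 and 36.3. The summit pileup there, in extended reads, was 32, 36 and 42 in the Ctrl libraries and 43, 36, 41 and 32 in the FGR libraries, against local backgrounds of 7.46 to 10.9. The FGR percentiles thus lay on both sides of the Ctrl percentiles, and the pileups of the groups overlapped. The start itself was covered by a weaker region (48346179 to 48346813), called in Ctrl replicate 4 at the percentile 19.3 and in FGR replicates 2, 3 and 4 at 8.30, 11.8 and 20.6. A further region at -9326 bp from the start was called in Ctrl replicate 3 alone. Peaks in the whole locus numbered 1, 0, 2 and 2 in Ctrl against 1, 2, 2 and 2 in FGR, and the groups overlapped.

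Clec7a, which encodes the β-glucan receptor Dectin-1, had no peak at its start or inside the gene in any library. Its locus on chromosome 6 (gene at 129461591 to 129472785, minus strand) was without a peak in every Ctrl library, and the FGR libraries had 1, 0, 0 and 1. That region (129474585 to 129474806) lay at -1936 bp from the start and ranked at the percentile 5.0 in FGR replicate 1 and 31.9 in FGR replicate 4, with summit pileups of 14 and 21 extended reads. The lowest pileup of any called peak was 12 in FGR replicate 1 and 14 in FGR replicate 4, so the first of these peaks was near the limit of detection.

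Axl, a receptor tyrosine kinase that binds GAS6 and takes part in clearing dead cells, lies on chromosome 7 (25756500 to 25788924, minus strand). Peaks in its locus numbered 5, 3, 5 and 6 in Ctrl against 6, 7, 6 and 6 in FGR. The lowest value was that of Ctrl replicate 2, and the groups met at 6. The mean was 4.75 ± 1.26 peaks in Ctrl (SD, n = 4 libraries) and 6.25 ± 0.354 in FGR (SD, n = 2, the pairs that share summits averaged). Averaging tends to lower an SD, so these SDs do not compare the spread of the groups. The Axl start had a peak in FGR replicate 1 alone, at the percentile 6.46 of that list. Many of the peaks counted for Axl lay in its neighbour Hnrnpul1, which encodes a nuclear ribonucleoprotein and borders the Axl 3′ end. Of the 9 regions, 4 overlapped Hnrnpul1. Among them was the Hnrnpul1 start (25754214 to 25755768), called in all 8 libraries at percentiles of 67.6 to 79.3 in Ctrl and 83.9 to 87.8 in FGR. That these ranges do not overlap was not tested, since the lists differ in length. The share of all regions that separate in this way was not counted. Axl counted as having a gene-end peak in 7 libraries, and each of them had a peak in Hnrnpul1, 75 bp from the Axl 3′ end at the nearest (25756010 to 25756425). In some libraries the peak at the Hnrnpul1 start, and in FGR replicate 1 that at the Axl start, also lay within 1 kb of an Axl end.

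Inside Axl, a region 11854 bp after the start (25776624 to 25777278) was called in all 8 libraries. Its percentiles were 68.0, 62.0, 61.1 and 82.8 in Ctrl against 76.5, 79.2, 80.0 and 73.8 in FGR. Ctrl replicate 4 was the highest of the 8, and the other 3 Ctrl libraries were the lowest. Ranks in lists of different length show no change of the region itself. A second region inside Axl, 1543 bp after the start (25786846 to 25787381), was called in no Ctrl library and in FGR replicates 2, 3 and 4, at the percentiles 50.9, 2.19 and 41.2. Of the 36 regions, 1, this one, was called in at least 3 more FGR than Ctrl libraries (4.33% of all regions) and 0 in at least 3 more Ctrl than FGR libraries (0.216%). For this region Fisher's exact test gave p = 0.143 (two-sided, adjusted p = 1). The test counted FGR replicates 2 and 4, a pair that shares summits, as separate libraries. Its pileups were 26, 20 and 30 extended reads over backgrounds of 5.30, 7.30 and 8.10.

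**Figure D3:**
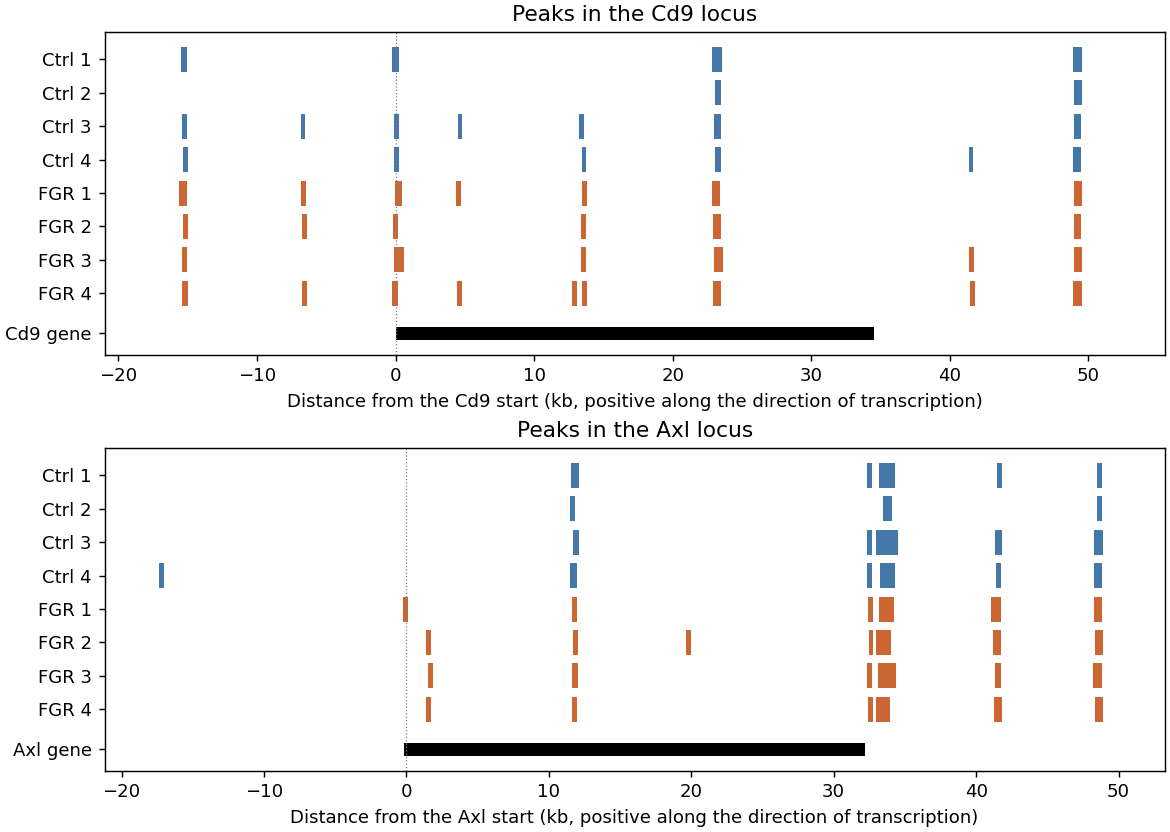
Peaks of each library (rows) as bars in the Cd9 and Axl loci, by distance in kb from each gene's start along the direction of transcription, with the gene span as a black bar. Blue is Ctrl and orange FGR. The Axl start has a peak in 1 library, the cluster past the Axl 3′ end belongs to Hnrnpul1, and the Cd9 start has a peak in 7 libraries.

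Apoe encodes the main lipid carrier protein of the brain and lies on chromosome 7 (19696244 to 19701310, minus strand) in a cluster with Apoc1, Apoc4 and Apoc2. Peaks in the locus numbered 2, 1, 3 and 2 in Ctrl against 2, 2, 4 and 2 in FGR. FGR replicate 3 was the highest and Ctrl replicate 2 the lowest, and the groups overlapped. The region called in all 8 libraries was the start of Tomm40 (19715015 to 19716261), a mitochondrial import gene, at percentiles of 99.1 to 99.9 and pileups of 58 to 124 extended reads, at -16589 bp from the nearest Apoe start.

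The Apoe start was covered by a weak region (19699015 to 19699241) in Ctrl replicate 3 and FGR replicate 2, at the percentiles 16.7 and 8.29. The gene-end measure counted a partly different set of libraries for Apoe, namely Ctrl replicates 1 and 3 and FGR replicates 3 and 4. That region (19701512 to 19701956) lies inside Tomm40, 202 bp outside the longest Apoe model and at -2528 bp from its nearest listed start. Between Apoe and Apoc1, 4770 bp after the Apoe start, a region (19693488 to 19693798) was called in FGR replicates 1 and 3 at the percentiles 9.11 and 8.46. FGR replicates 1 and 3 are the pair that share summits, and count as 1 sample. Astrocytes also express Apoe strongly. In the loci of 8 astrocyte genes the summed number of peaks was 7 to 11 in Ctrl and 10 to 17 in FGR libraries, and all 6 with a start sequence had no start peak in any library.

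Lpl, the lipoprotein lipase gene on chromosome 8 (68880555 to 68906932), had no peak in its locus in 7 of 8 libraries. Its locus held 1 peak, in Ctrl replicate 1 (68881247 to 68881531), inside the gene and within 1 kb of an annotated end, at the percentile 15.9 with a pileup of 19 extended reads. Spp1, which encodes the secreted phosphoprotein osteopontin (chromosome 5, 104435111 to 104441053, plus strand), had no peak inside the gene or at its start in any library. Peaks in its locus numbered 1, 1, 2 and 1 in Ctrl, against 1 in every FGR library. All of these belonged to a single region at the start of Pkd2 (104459219 to 104460408), a cation channel gene of cilia, 18166 bp beyond the Spp1 span. Its percentiles in FGR followed the pairs that share summits, with 73.9 and 76.5 in replicates 1 and 3 and 16.2 and 12.9 in replicates 2 and 4.

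Cst7, which encodes cystatin F, an inhibitor of lysosomal cathepsins, lies on chromosome 2 (150570415 to 150578944, plus strand). Its locus held a single region, at its own start (150570028 to 150570636), called in Ctrl replicates 1 and 3 and in FGR replicates 2 and 4. The percentiles were 32.3 and 41.8 in the Ctrl and 46.9 and 50.9 in the FGR libraries, and the pileups were 28, 28, 26 and 32 extended reads. In FGR the call thus went with the pair of replicates 2 and 4, which counts as 1 sample. Cst7 is also expressed by natural killer and T cells, whose 8 listed genes had no start peak in any library and 4 to 12 summed peaks in Ctrl and 8 to 10 in FGR.

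Cd9, a tetraspanin of the cell surface, had 9 regions, 5 of them inside the gene. It lies on chromosome 6 (125460266 to 125494760, minus strand), and no other protein-coding gene overlaps its locus. Peaks in the locus numbered 4, 2, 7 and 6 in Ctrl against 7, 6, 6 and 9 in FGR. Ctrl replicates 1 and 2 were below all others, and Ctrl replicates 3 and 4 lay within the FGR values. The mean was 4.75 ± 2.22 peaks in Ctrl (SD, n = 4 libraries) and 7 ± 0.707 in FGR (SD, n = 2 averaged pairs). As for Axl, these SDs are of unlike units and do not compare the spread of the groups. The start (125494187 to 125495052) was called in every library but Ctrl replicate 2, at percentiles of 26.8 to 42.8 in Ctrl and 14.3 to 64.1 in FGR.

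The strongest Cd9 region lay 14387 bp past the 3′ end of the gene (125445198 to 125445879). It was called in all 8 libraries, at percentiles of 80.2 to 95 in Ctrl and 90.6 to 98.2 in FGR. A region inside the gene, 23167 bp after the start (125471117 to 125471919), was also called in all 8, at the percentiles 57.0, 35.8, 91.9 and 77.8 in Ctrl against 88.4, 90.4, 91.9 and 88.5 in FGR. The 2 lowest values were those of Ctrl replicates 1 and 2. Another, at -15208 bp from the start (125509769 to 125510379), was called in Ctrl replicates 1, 3 and 4 at the percentiles 23.4, 36.5 and 60.8, and in every FGR library at 88.3, 67.6, 89.2 and 81.1. Every FGR rank there was above every Ctrl rank. This was not tested, since the ranks come from lists of different length. The share of all regions that separate in this way was not counted. Inside the gene, 13519 bp after the start (125481016 to 125481508), lay a weaker region. Ctrl replicates 3 and 4 had it at 19.2 and 3.91 and all 4 FGR libraries at 37.4 to 64.4, again apart and not tested. With −log10 q of at least 5 it was called in 4 FGR and 0 Ctrl libraries, as were 344 of all 28478 regions at that threshold.

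Cd52, which encodes a short glycoprotein anchored in the outer membrane of leukocytes, spans 1536 bp on chromosome 4 (134093538 to 134095073). Peaks in its locus numbered 3, 2, 4 and 5 in Ctrl, and every FGR library had 3, within the Ctrl range. No region overlapped the gene itself. Those called in all 8 libraries lay 2026 and 3471 bp beyond its span, between Cd52 and Ubxn11 (134097099 to 134097711 and 134098544 to 134099198), at percentiles of 47.2 to 79.6 and 28.9 to 70.2. The region nearest to the gene (134092552 to 134092807), 731 bp from its span, was called in Ctrl replicates 3 and 4 and in no FGR library. It is the gene-end peak counted for Cd52, and it also lies within 1 kb of an end of Crybg2. The start of Ubxn11 (134102424 to 134102821), a UBX domain gene, was called in Ctrl replicates 1, 3 and 4 at the percentiles 60.8, 84.9 and 52.9 and in FGR replicates 1, 2 and 3 at 18.6, 17.2 and 21.9. Where it was called, every Ctrl rank was above every FGR rank. This was not tested, since the ranks come from lists of different length. The share of all regions that separate in this way was not counted.

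Between the groups, no member locus passed the test for a different share of peaks. The share was log2 of the peaks plus 0.5 per 10000 peaks of the library, compared with limma over 8037 loci that had a mean of at least 2 peaks, and 4 members passed that filter: Apoe, Axl, Cd9 and Cd52. None of the 4 passed an adjusted p of 0.05 in limma, against 0.0124% of loci higher and 0% lower in FGR. The unadjusted p was under 0.05 for 0 members with a higher share in FGR (2.6% of all loci) and for 1, Cd52, with a lower share (15.6%). The median difference of all loci was -0.28, and by construction a locus with a constant number of peaks has a smaller share in the longer FGR lists.

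The Cd52 difference was -0.72 ± 0.24 on the log2 scale (SE, limma adjusted p = 0.167), with a 95% interval of -1.2 to -0.24. It was -0.72 ± 0.32 when each FGR pair counted as 1 sample (SE, limma adjusted p = 0.589) and -0.68 ± 0.21 with Ctrl replicates 1 and 2 left out (SE, limma adjusted p = 0.474). It was -0.69 within replicates 1 and 2 and -0.75 within replicates 3 and 4, which are listed apart in the series (limma adjusted p = 0.220 and 0.471). Each FGR pair that shares summits has 1 library in each of these 2 sets, so the 2 differences may not be independent. The median of all loci was -0.42 and -0.14 in these sets, and -0.12 without Ctrl replicates 1 and 2. Counted without division by list length the Cd52 difference was -0.13 ± 0.23 (SE, limma adjusted p = 0.746), while the median of all loci was then 0.31. For Apoe the difference was -0.31 ± 0.30, for Axl -0.19 ± 0.21 and for Cd9 0.03 ± 0.21 (SE, limma adjusted p = 0.520, 0.582 and 0.950). Their 95% intervals were -0.92 to 0.29, -0.63 to 0.24 and -0.41 to 0.46, which include 0. With each FGR pair counted as 1 sample, the SEs were 0.39, 0.28 and 0.29 (limma adjusted p = 0.729, 0.764 and 0.974). The intervals were then wider, -1.1 to 0.46, -0.76 to 0.38 and -0.55 to 0.60. Without Ctrl replicates 1 and 2 the differences were -0.21 for Apoe, 0.00 for Axl and -0.09 for Cd9 (limma adjusted p = 0.831, 0.990 and 0.924).

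**Figure D4:**
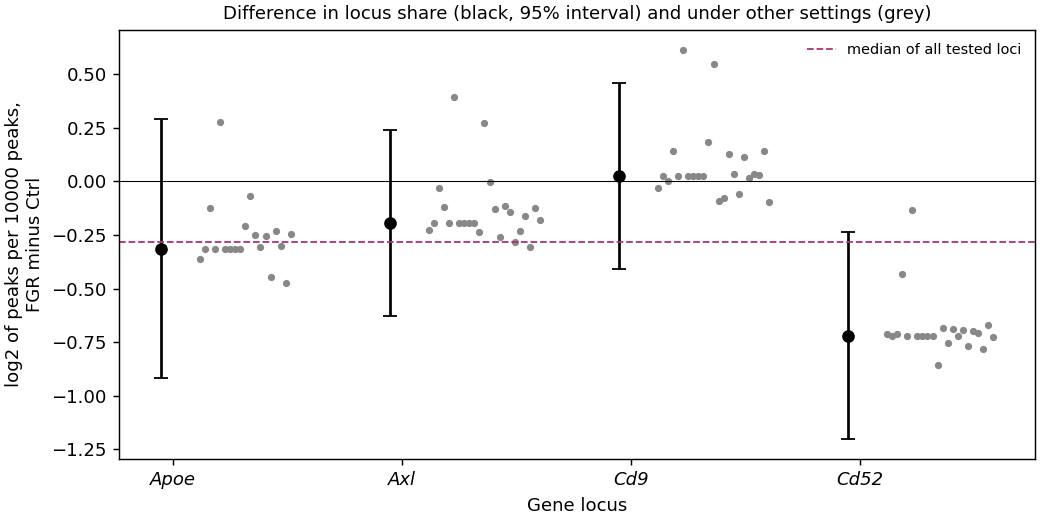
Difference between FGR and Ctrl in log2 peaks per 10000 peaks (vertical axis) for the 4 loci tested (horizontal axis), black with its 95% interval, and grey points for each alternative setting. The dashed line is the median of all tested loci, -0.28. Cd52 lies below 0 in every setting, but its interval includes the dashed line. The other 3 have settings on both sides of 0.

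With lists of equal length, the 10862 strongest peaks of each library, the Cd9 locus held 2, 2, 2 and 3 peaks in Ctrl against 3, 3, 4 and 4 in FGR, and the groups met at 3. The log2 difference was then 0.55 ± 0.15 (SE, limma adjusted p = 0.333), against a median of 0 over all loci. Axl held 5, 3, 3 and 3 in Ctrl and 4, 5, 4 and 4 in FGR, with a difference of 0.27 ± 0.17 (SE, limma adjusted p = 0.658). Clec7a, Lpl and Cst7 held 0 in every library. Apoe held 1 peak in each of the 8, and Trem2 a mean of 0.75 in both groups. Cd52 held 2, 2, 2 and 1 in Ctrl against 2, 2, 1 and 1 in FGR, with means of 1.75 and 1.5, too few to be tested in this setting.

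By presence, 0 of the 36 regions were called in 4 FGR and 0 Ctrl libraries, against 0.869% of all regions, and 0 in 4 Ctrl and 0 FGR, against 0.0268%. With 4 libraries against 4, only such a split can bring Fisher's exact test under 0.05, with p = 0.0286. That p takes the 4 FGR libraries as separate, although the FGR pairs share summits, and so is too small if each pair is 1 sample. At those shares of all regions, less than 1 of 36 would be called so, and the members' counts are near the background.

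Of 24 further disease-associated genes, 9 had a gene-end peak in all 8 libraries (37.5%, near the 31.9% of all genes) and 5 had none in any. The 9 were Tyrobp, the signalling adaptor of TREM2, the cathepsin genes Ctsb, Ctsd and Ctsl, the MHC class I light chain gene B2m, the growth factor gene Csf1, the lysosomal gene Cd68, Ank and Cadm1. Fth1, which encodes ferritin heavy chain, and Hif1a, the gene of an oxygen-regulated transcription factor, had none at a gene end but a peak in all 8 libraries at a start that lies further inside the annotated span. The 5 with a start sequence and no start peak in any library were Lyz2, Itgax, Cd63, Igf1 and Gpnmb. The Igf1 locus held 0.105 peaks per 100 kb and the Cd68 locus 12.8.

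Of the 24, 15 loci entered the limma test, and 0 passed an adjusted p of 0.05 in either direction, nor did any have an unadjusted p under 0.05. The median log2 difference was -0.24, with 3 of 15 above 0, against -0.28 over all loci. The median of the 4 members tested was -0.25. For the 15 homeostatic microglia loci tested it was 0.03, with 8 above 0 and 0 called at an adjusted or unadjusted p of 0.05. None of the 24 differed by 3 or more libraries between the groups in its gene-end peak. Border macrophages also express several of these genes. The summed peaks over their 8 marker loci were 5 to 16 in Ctrl and 11 to 17 in FGR, 6 of 7 with a start sequence had no start peak in any library, and the part of such cells in the member values was not tested.

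**Figure D5:**
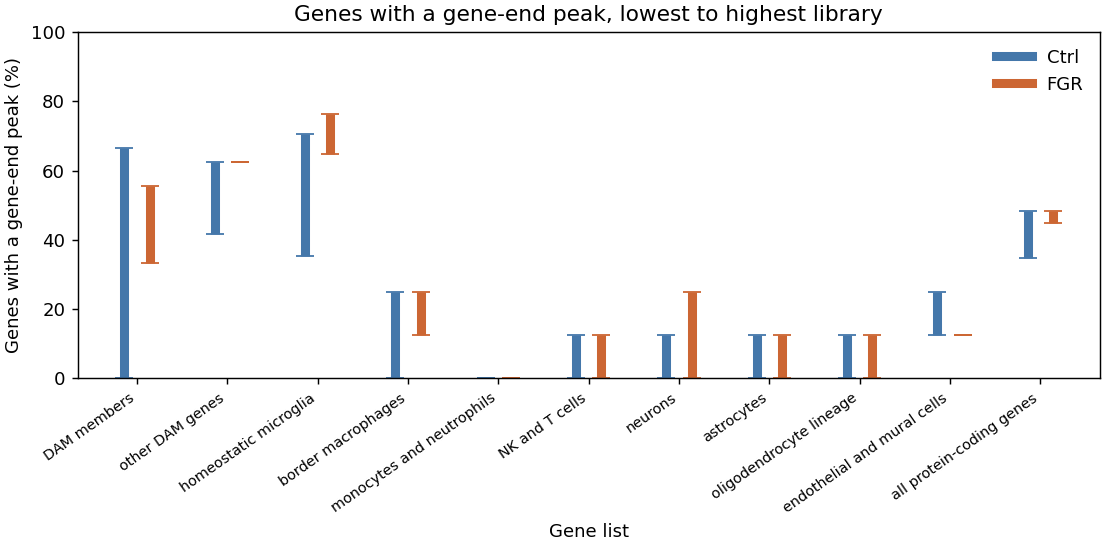
Percent of genes with a peak within 1 kb of an annotated end (vertical axis) for each gene list (horizontal axis), as a bar from the lowest to the highest library of Ctrl (blue) and FGR (orange). The first list, DAM members, is the 9 genes described here (0% to 66.7% in Ctrl and 33.3% to 55.6% in FGR), and the second is the 24 further genes of the programme.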

How the data were processed

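ATAC-seq peak lists of 8 libraries, 4 Ctrl and 4 FGR as named in the sample titles, were analysed. The submitters' processing notes list MACS2 2.2.7.1, Bowtie2 2.4.5, DiffBind 3.12.0, Trim Galore 0.6.5, SAMtools 1.3.1 and the build mm10, but no role or settings. Whether reads were shifted for the transposase, and how duplicates or blacklisted regions were treated, was not given in the sources used here. Read totals were not used. Each deposited list gives the authors' fold, a ratio of summit pileup to local background, and the authors' −log10 p and −log10 q for each peak, from which percentiles within a list were taken. The deposited score was not used. Summit pileup and local background were recovered from the deposited fold and −log10 p as the whole-number pileup whose Poisson tail matches, found for 100% of peaks within 0.001. Gene positions came from RefSeq GRCm38.p6, without strand or exons, and starts from its promoter table.

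Locus shares were tested with R 4.3.3 and limma 3.58.1 (trend, no block, Benjamini-Hochberg over all tested loci), and presence with Fisher's exact test. Other steps used Python 3.11.15 with scipy 1.17.1, numpy 2.4.6, matplotlib 3.10.9 and pandas 2.3.3. Poisson counts for peaks per locus were simulated over 8037 loci, independent between libraries and with changed loci raised in FGR. In these, limma called 0 of 200 loci changed by a fold of 2 and 169 of 200 changed by a fold of 4, which is 84.5%. The spread of the real counts and the FGR pairs that share summits were not modelled, so these rates need not hold for the real libraries. The members, the lists and their tests were chosen with earlier results of these data known. Genes were named by rule: all 9 members, listed genes called by limma or differing by 3 or 4 libraries at a gene end, and in the member loci each region called in all 8 libraries, differing by 3 or 4 libraries, or strongest in its locus. Other genes and regions, including the further disease-associated genes listed by their open or closed ends, were named after their values were seen.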

Additional observations from a re-analysis of the deposited data

Results flagged for a closer look

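Peak numbers of 18 sets of 4 libraries, a locus in a group each, were examined for a library far from the other 3, and 5 were marked, where chance marks about 1 in 20. The values are small whole numbers, and a set in which 3 values are equal and the other differs is always marked. In FGR, the Trem2 locus held 1 peak in replicate 1 and 2 in the others, the Apoe locus held 4 in replicate 3 and 2 in the others, and the Axl locus held 7 in replicate 2 and 6 in the others. In Ctrl, the Lpl locus held 1 peak in replicate 1 and 0 in the others, and the Spp1 locus held 2 in replicate 3, both at the Pkd2 start, and 1 in the others.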

How the results depend on the processing

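No member that was tested passed limma at an adjusted p of 0.05 in any of 23 alternatives. Between 2 and 6 members had enough peaks to be tested in 22 of these, and all 9 were tested only without the filter on low counts. Of the alternatives, the first deposit set alone (replicates 1 and 2) and the averaging of FGR pairs were chosen after seeing the data. Log2 differences ranged from -0.85 to -0.13 for Cd52, -0.47 to 0.27 for Apoe, -0.31 to 0.40 for Axl and -0.10 to 0.61 for Cd9 over the settings that tested them. The sign turned without division by list length for Apoe (0.27) and Axl (0.40), and with equal-length lists for Axl (0.27). For Cd9 it turned to -0.03 with a pseudocount of 1, -0.09 without Ctrl replicates 1 and 2, -0.08 in replicates 3 and 4 alone, -0.06 without Ctrl replicate 2 and -0.10 without FGR replicate 4, in a range of -0.10 to 0.14 when a library was left out. The cause was not tested. Same-numbered Ctrl and FGR libraries deviated together with correlations of -0.0176, 0.0977, 0.0671 and 0.0290 across 8037 loci. Differently numbered ones gave -0.121 to 0.108. These values do not show a pairing by number, and with such small counts they cannot show its absence. With a replicate block, 0 members passed, and over all loci 54 were higher and 87 lower, against 1 and 0 without it. A pseudocount of 1 gave 7 and 50, and equal-length lists 13 and 7.

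The number of member regions separating the groups completely, 0 in all lists, was 1 of 25 with −log10 q of at least 5 (FGR alone, in Cd9), where 344 of all 28478 regions were in FGR alone. It was 1 of 35 without Ctrl replicates 1 and 2 (Ctrl alone, beside Cd52), as for 394 of all 52072. In replicates 3 and 4 alone it was 2 of 33, that region and the Axl region, with 660 of all 44788 in Ctrl alone and 1623 in FGR alone. It was between 0 and 1 when a library was left out, the 1 being the Axl region without FGR replicate 1, where 724 of all 47738 were in FGR alone. Fewer libraries loosen this requirement. The mean number of members with a start peak was 1 higher in FGR (2.75 against 1.75). The difference was -0.25 with −log10 q of at least 5, 0.25 with equal-length lists or without Ctrl replicates 1 and 2, 0 in replicates 3 and 4 alone, 0.417 without Ctrl replicate 2, 0.583 without FGR replicate 2 and 0.417 to 1.42 over all single libraries left out. Peak numbers of 0 to 9 per locus limit detection to large differences.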
